A study of Triticum aestivum with 18 samples.

Results

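The genes described here are the 219 wheat genes that the deposited table annotates as peroxidases on the chromosomes of homoeologous groups 1 and 7. They were taken by 3 conditions, namely a TraesCS identifier, a place on chromosome 1A, 1B, 1D, 7A, 7B or 7D, and a description that contains peroxidase but is neither a glutathione nor an ascorbate peroxidase. The table holds 134610 genes, of which 623 are peroxidases by the same wording and 404 of these lie on other chromosomes, with 170 on group 2. The 3 conditions use no measured value. All 219 carry the plain description "Peroxidase", and chromosomes 1A and 1B hold 33 genes each, 1D, 7A and 7B hold 38 each, and 7D holds 39. Only 28426 genes of the table have a description, so a peroxidase gene without one is not among them.

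Plant peroxidases of this kind (class III) are heme enzymes that are secreted into the cell wall and the vacuole. They use hydrogen peroxide to oxidise phenolic compounds, which joins lignin and suberin units and cross-links wall proteins and polysaccharides, and some can also form reactive oxygen species. Grass genomes hold large families of them, with many members in tandem rows, and roots are a tissue in which the family is known to be strongly expressed. The role of each single wheat gene is not annotated in the table, so genes are described below by identifier and position.

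Seedlings of the winter wheat cultivar Jimai 22 were sequenced in 3 conditions, from the roots and the third leaf of each. The groups were 5 mM 3-MA + 150 mM NaCl roots (TMG), 150 mM NaCl roots (TG), control roots (CG), and the same 3 conditions in leaves (TMY, TY and CY), with 3 libraries per group. 3-MA (3-methyladenine) inhibits the phosphatidylinositol 3-kinase needed for autophagosome formation and was given 5 h before NaCl, and all tissue was taken at 4 days. Each library was made from a mixture of 10 roots or leaves. The study also grew seedlings with 5 mM 3-MA alone, but no sequenced group received 3-MA without NaCl. A difference between TMG and TG or between TMY and TY was thus measured under salt only.

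Library totals were 27156078 to 33150906 counts on genes (median 30324868), and the 219 genes took 0.316 to 0.445% of the counts in root libraries and 0.0442 to 0.0829% in leaf libraries. Levels are CPM, counts scaled to library size with TMM factors over the 18 libraries, and CPM per kb of gene length wherever genes are compared with each other. Of the 219 genes, 7 had no count in any library, 26 had under 10 counts in all, 211 had a count in a root library and 101 in a leaf library. Neighbouring and homoeologous copies of the family are alike in sequence, so reads may have been divided between copies and each gene's value is uncertain to that extent. The models of TraesCS7B02G298400 and TraesCS7B02G298500 overlap over 1263 bases on the same strand, and the reads of this pair cannot be told apart from the counts. In bulk tissue, fewer cells of a type and less RNA per cell cannot be told apart. The leaf label was borne out by 91 chlorophyll a-b binding genes, whose summed level was 8083 to 94014 CPM in leaf libraries. In roots this sum was 14.8 to 22.0 CPM in TMG, 55.7 to 97.8 CPM in TG and 254 to 417 CPM in CG, and of the 91 genes 42, 54 and 75 were detected in these groups. Green tissue transcripts were thus lower in each root group that received more agents, and their part in the root results below was not tested.

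**Figure D1:**
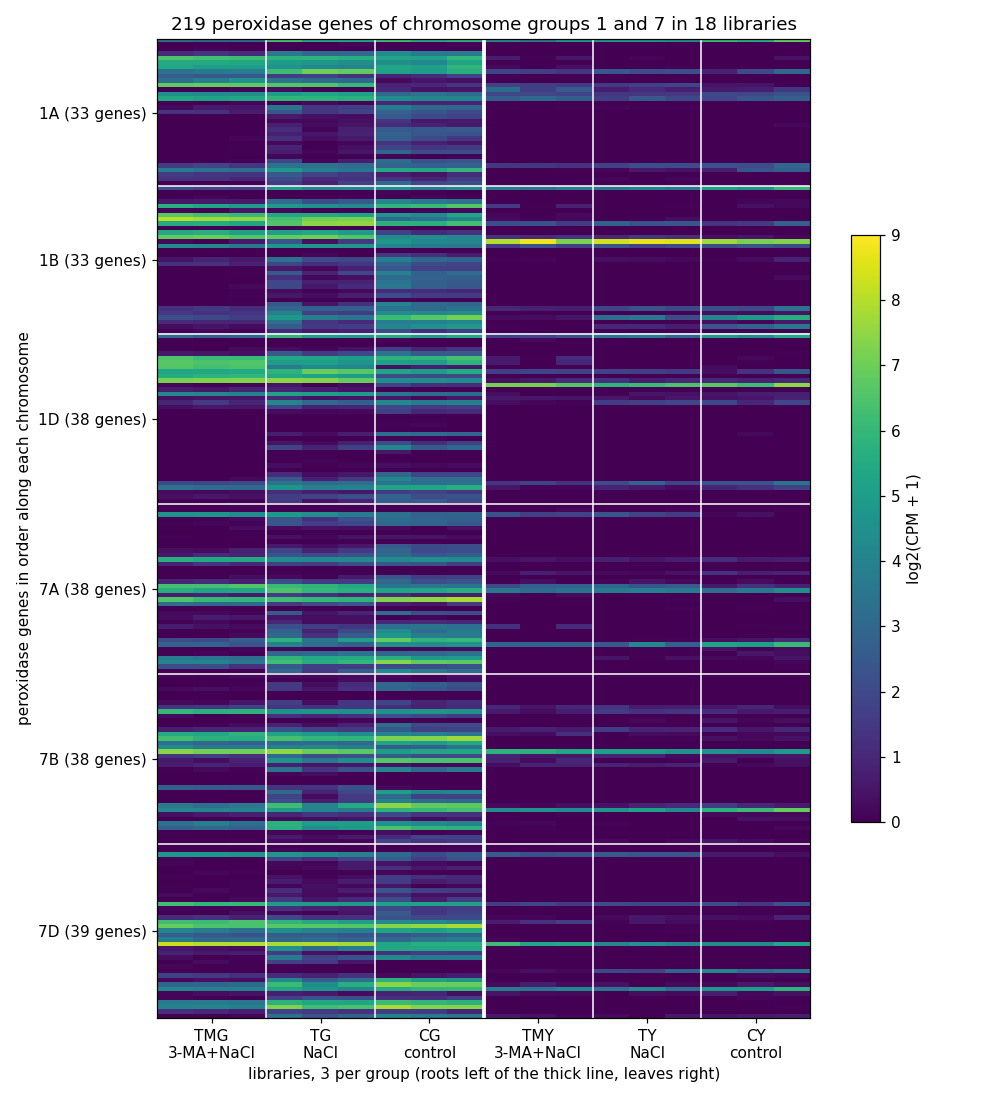
Level of each of the 219 peroxidase genes as log2(CPM + 1), colour scale 0 to 9, with 1 row per gene in chromosome order and 1 column per library. Roots (left of the thick line) hold most of the signal, many rows fade in TMG and TG beside CG, and a few single rows carry the leaf libraries.

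In control seedlings the family was mainly a root family. Of 165 genes that passed the count filter between CG and CY, 148 were higher in roots and 6 were lower, against 36.1% and 29.3% of all 71882 genes tested (65.4% called in either direction). For the same numbers of genes, 148 and 6, all CG libraries lay above or below all CY libraries, against 39.7% and 32.2% of all genes tested. The summed level of the 219 genes was 3745, 3117 and 3622 CPM in CG and 693, 593 and 1038 CPM in CY. Of the genes tested, 87 had no count in CY and 2 none in CG, and with these 89 genes at the bound set by 3 counts over a group the median difference was 5.80 on the log2 scale. Without any single library 146 to 152 genes were called higher and 6 or 7 lower.

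The most abundant genes of control roots lay on group 7. TraesCS7D02G334300 (7D, 426450327 to 426451744) had 164, 189 and 232 CPM in CG and no count in CY, which is at least 3824-fold higher in CG. Per kb, its level of 148 ± 26.4 CPM in CG (SD, n = 3) was followed by TraesCS7A02G345100 with 141 ± 29.0, TraesCS7D02G461200 with 134 ± 29.7 and TraesCS7B02G238100 with 129 ± 25.0. These 4 levels did not differ beyond their spread. TraesCS7D02G461200 had 232, 159 and 162 CPM in CG against a single count in CY (ratio 11146, 95% interval 2000.3 to 440287, counting error only). TraesCS7D02G442300 (70.1, 59.9 and 53.0 CPM in CG) and TraesCS1A02G078600 (37.7, 34.5 and 59.4 CPM in CG) had no count in CY either, at least 1222-fold and 859.8-fold higher in CG.

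Only a handful of genes carried the leaf signal. TraesCS1B02G115900 (1B, 136312347 to 136314149) had 25.9, 17.3 and 16.6 CPM in CG and 206, 141 and 158 CPM in CY (log2 fold change -3.07 ± 0.25, SE, edgeR adjusted p = 2.13e-06). TraesCS1D02G096400 (1D, 81725606 to 81727388) had 2.53, 1.36 and 1.23 CPM in CG and 103, 73.0 and 177 CPM in CY (-6.07 ± 0.41, edgeR adjusted p = 6.38e-07). TraesCS7D02G370400 (7D, 478891069 to 478892582) had no count in any of the 9 root libraries and 16.7, 8.36 and 10.9 CPM in CY, which is at least 346-fold lower in CG. The tissues did not overlap for any of these 3 genes. TraesCS1B02G095800 (-1.23 ± 0.32) and TraesCS7A02G428200 (-1.05 ± 0.24) differed less, and the call of TraesCS1B02G095800 was lost when libraries were scaled by their size alone. The remaining gene, TraesCS7A02G234000, named after its values were seen because it completes the count, had no count in CG and 58 in CY. The 5 leading genes took 81.1% of the summed level in TMY, 77.6% in TY and 62.9% in CY, against 32.1% in TMG, 24.5% in TG and 25.0% in CG.

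**Figure D2:**
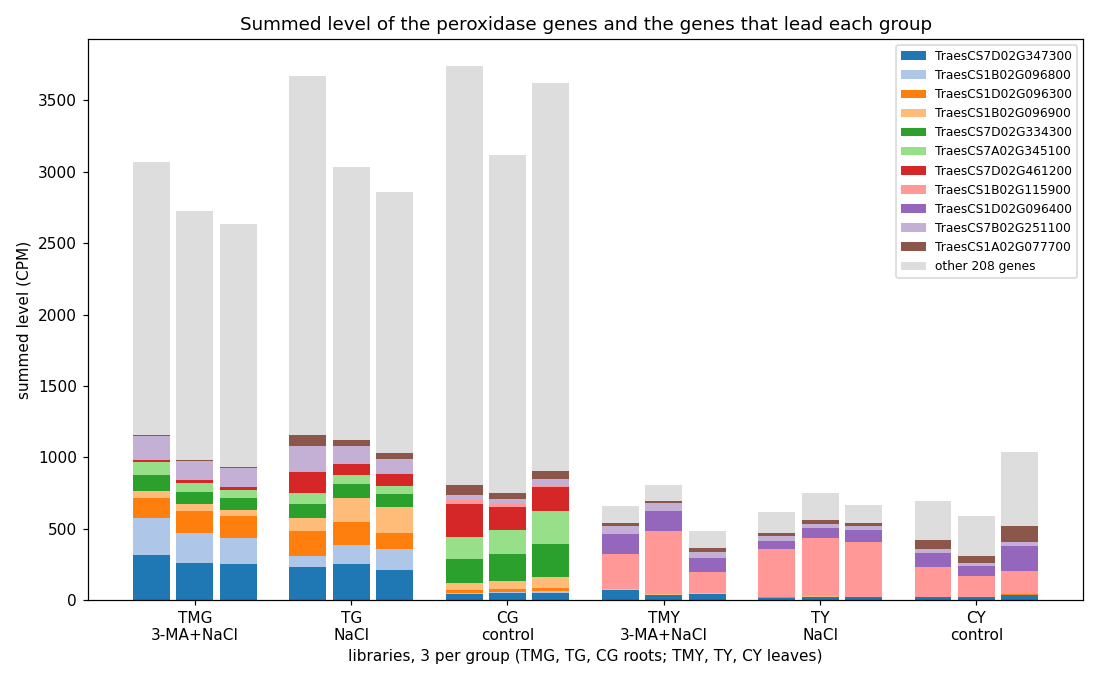
Summed level of the 219 peroxidase genes in each library (CPM, bars from 0), with the 11 genes that rank in the first 3 per kb of any group in colour and the other 208 in grey. Root bars stand at 2638 to 3745 CPM and leaf bars at 487 to 1038 CPM, and the coloured genes of TMG and TG are mostly other genes than those of CG.

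With NaCl, more of these genes fell than rose in roots. Of 171 genes tested between TG and CG, 33 were higher and 76 lower at an edgeR adjusted p of 0.05 or less, which is 19.3% and 44.4%, against 18.5% and 17.1% of all 73066 genes tested (35.6% in either direction). The median log2 fold change was -0.99, against 0.03 over all genes tested. All TG libraries lay above all CG libraries for 33 genes tested and below them for 88, against 25.8% and 25.4% of all genes tested. A further 48 genes did not pass the filter, with at most 35 counts in TG and 51 in CG, and their mean was higher in TG for 13 and lower for 26. The count of lower genes rested on CG replicate 1, being 49 without it and 57 to 100 with each other library left out, while the count of higher genes stayed at 28 to 33. Histone H4 genes, which mark dividing cells, summed to 507 to 1022 CPM in TG and 973 to 1108 CPM in CG. Another such marker, proliferating cell nuclear antigen (PCNA), summed to 34.2 to 49.9 CPM in TG and 34.5 to 43.4 CPM in CG. Of 9 PCNA genes tested, 1 was higher and 0 lower by edgeR. The part of dividing cells in this result was not tested.

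Although more genes fell than rose, the summed levels of the groups overlapped, at 3669, 3034 and 2860 CPM in TG and 3745, 3117 and 3622 CPM in CG. The 33 genes that rose summed to 1737 ± 141 CPM in TG and 458 ± 36.8 CPM in CG. The 76 that fell summed to 718 ± 209 CPM in TG and 2058 ± 160 CPM in CG. Fewer genes reached a mean of 1 CPM, 128 in TG against 151 in CG, and the median gene had 1.89 CPM in TG against 3.76 CPM in CG. These sums follow the calls and are a description, and the counts of genes at 1 CPM were not taken over all genes.

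The genes that rose most in salted roots were at 0 to 16.5 CPM in control roots. TraesCS1A02G104200 (1A, 100039051 to 100040874) had 96.0, 92.0 and 65.0 CPM in TG and 0.884, 1.00 and 1.68 CPM in CG (log2 fold change 6.18 ± 0.30, SE, edgeR adjusted p = 3.18e-05). TraesCS1D02G080800 (1D, 63356965 to 63358345) had 12.4, 18.8 and 15.9 CPM in TG and 0.335, 0.679 and 0.523 CPM in CG (4.97 ± 0.28, edgeR adjusted p = 4.06e-05). TraesCS1B02G096800 (1B, 101142877 to 101144325), one of the genes the study itself names, had 79.4, 132 and 141 CPM in TG and 7.59, 9.25 and 16.5 CPM in CG (3.43 ± 0.34, edgeR adjusted p = 3.01e-04). In each the lowest TG library lay well above the highest CG library. TraesCS1A02G104100, TraesCS1B02G115700 and TraesCS1D02G096200 rose by 4.77, 4.39 and 3.54 on the log2 scale to 7.07 to 43.8 CPM in TG, and TraesCS7B02G276100 rose by 4.47 to 1.58 to 3.70 CPM in TG. TraesCS7D02G369900 had 2.40, 1.89 and 0.445 CPM in TG against 1 count in CG, a ratio of 140 (95% interval 24.8 to 5567, counting error only), and that count was in CG replicate 3. Of these 8 genes, 6 lie on group 1, which holds 83 of the 171 genes tested and 18 of the 33 called higher.

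TraesCS7D02G347300 (7D, 446917277 to 446920319), also named by the study, became the most abundant of all. It had 232, 251 and 214 CPM in TG and 40.5, 48.5 and 48.7 CPM in CG (log2 fold change 2.37 ± 0.15, SE, edgeR adjusted p = 5.70e-05). Per kb it stood at 145 ± 11.6 CPM in TG, above TraesCS1D02G096300 with 110 ± 22.0 and TraesCS1B02G096900 with 103 ± 33.8, 2 genes picked here after their levels were seen, whose spreads overlap. None of the 3 was among the 6 most abundant genes of CG.

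The leading genes of control roots were at lower levels in TG, though not all passed the test. They were picked by their level in the same CG libraries, which favours a fall. TraesCS7D02G334300 had 97.9, 99.3 and 95.1 CPM in TG and 164, 189 and 232 CPM in CG (log2 fold change -0.97 ± 0.16, SE, edgeR adjusted p = 0.00261). TraesCS7A02G345100 and TraesCS7B02G238100 fell by 1.52 and 1.31 on the log2 scale. TraesCS7D02G461200, at 152, 74.1 and 84.1 CPM in TG and 232, 159 and 162 CPM in CG, did not pass (edgeR adjusted p = 0.0604). TraesCS7B02G325800 and TraesCS7D02G417400, the other abundant genes of control roots, fell by 1.51 and 1.52. In both, TG replicate 2 was the lowest library, at 16.7 and 20.3 CPM.

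The largest falls were in genes of low level. TraesCS1D02G317700 (1D, 412507090 to 412508635) had 0.672, 0.191 and 0.695 CPM in TG and 9.08, 7.89 and 6.65 CPM in CG (log2 fold change -3.88 ± 0.38, SE, edgeR adjusted p = 2.69e-04). TraesCS1B02G214800 had 3 counts in TG, all in replicate 2, against 114 in CG, a ratio of 48.3 (95% interval 16.1 to 237, counting error only) in favour of CG. TraesCS7D02G253200, TraesCS7B02G379100, TraesCS1A02G318600, TraesCS7A02G254700 and TraesCS1B02G330400 fell by 3.88, 3.81, 3.51, 3.44 and 3.40. Single TG libraries set some of these sizes: without TG replicate 3 the change was -4.88 for TraesCS7D02G253200 and -4.71 for TraesCS7A02G254700, and without TG replicate 1 it was -4.85 for TraesCS1B02G330400. Each of these 7 genes had at most 68 counts over the 3 TG libraries, which limits the precision of its change.

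**Figure D3:**
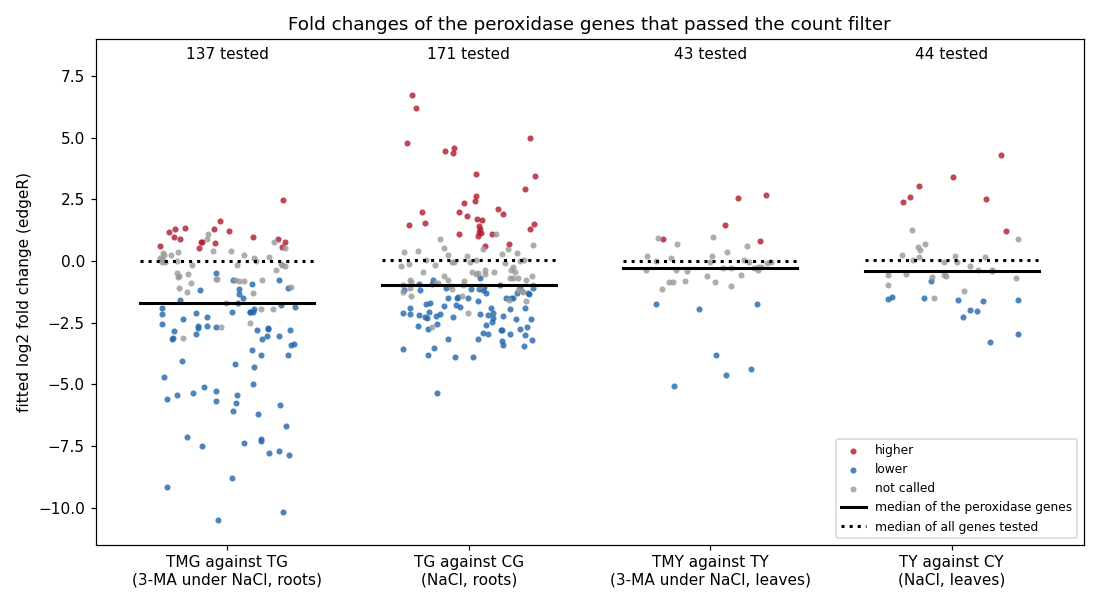
Fitted log2 fold change (edgeR) of every peroxidase gene that passed the count filter in 4 comparisons, coloured by call, with the median of these genes (solid line) and of all genes tested (dotted line). Root points reach far below 0 in TMG against TG, where the 5 genes without a count in TMG are drawn at fitted values that are no bound, and leaf points are few.

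With 3-MA before salt, more of these genes fell than rose in roots. Of 137 genes tested between TMG and TG, 18 were higher and 73 lower, which is 13.1% and 53.3%, against 8.16% and 12% of all 73651 genes tested (20.2% in either direction). The median log2 fold change was -1.70, against -0.01 over all genes tested, and was the same with 5 genes without counts in TMG set at their bound. All TMG libraries lay above all TG libraries for 22 genes tested and below them for 83, against 20.3% and 21.1% of all genes tested. Of the called genes, 39 of the 73 fell by more than 3 on the log2 scale and none of the 18 rose by that much. The share of changes of this size was not taken over all genes tested. Genes at or near 0 in TMG passed the filter through TG, so they could only show a fall. A further 82 genes did not pass the filter, with at most 22 counts in TMG and 170 in TG, and their mean was higher in TMG for 10 and lower for 56. The count of higher genes rested on single libraries, being 10 without TG replicate 2, 11 without TMG replicate 1 and 11 without TMG replicate 2, while the count of lower genes stayed at 65 to 88. TG is shared with the salt comparison above, so spread among the TG libraries enters both. Histone H4 genes summed to 500 to 524 CPM in TMG and 507 to 1022 CPM in TG. PCNA genes summed to 38.8 to 42.4 CPM in TMG and 34.2 to 49.9 CPM in TG. Of 9 PCNA genes tested, 0 were higher and 0 lower by edgeR and by DESeq2. The part of dividing cells in this result was not tested.

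Again the summed levels overlapped. The summed level was 3067, 2723 and 2638 CPM in TMG and 3669, 3034 and 2860 CPM in TG. The 73 genes that fell summed to 326 ± 12.9 CPM in TMG and 1305 ± 214 CPM in TG, and the 18 that rose to 1194 ± 104 CPM in TMG and 606 ± 44.8 CPM in TG. The sums of called genes follow the calls and are a description. Fewer genes reached a mean of 1 CPM, 80 in TMG against 128 in TG and 151 in CG, and the median gene had 0.105 CPM in TMG. No count at all was found for 51 genes in TMG, 20 in TG and 15 in CG. Of the 51, 22 had a count in every TG library and 25 in every CG library, whereas no gene without a count in TG had one in every TMG library. None of these counts of genes was taken over all genes, so they are a description.

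TraesCS7A02G477100 (7A, 670945813 to 670947380) gave the largest bound. It had no count in TMG, 7.03, 1.86 and 5.56 CPM in TG and 19.9, 12.6 and 8.26 CPM in CG, and was at least 189-fold lower in TMG than in TG (edgeR adjusted p = 0.00242). TraesCS7B02G298400 (at least 149-fold), TraesCS1D02G318000 (at least 73.7-fold), TraesCS1B02G330500 (at least 58.4-fold) and TraesCS1A02G318200 (at least 26.2-fold) had no count in TMG either. All 5 were lower at edgeR adjusted p = 0.00242 to 0.00988, and having passed the count filter through TG they could only be called lower. TG replicate 1 held most of the TG reads of some of them, and without it the bounds were 144-fold, 71.2-fold, 59.5-fold, 31.1-fold and 25.2-fold in the same order.

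A next set kept a trace of reads in TMG. TraesCS7D02G464600 (7D, 579098823 to 579100420) had 3 counts in TMG and 9.10, 3.88 and 6.37 CPM in TG, a ratio of 253 (95% interval 86.1 to 1228, counting error only) in favour of TG. TraesCS1B02G330200, TraesCS1B02G331200, TraesCS7B02G298600 and TraesCS1A02G356100 had 1 count each in TMG against 315, 246, 221 and 188 in TG, and TraesCS7A02G396400 had 2 against 366. All the TMG reads of these 6 genes came from replicate 3. TraesCS7A02G452900 (7A, 646477435 to 646483839) had 0.0272, 0.0952 and 0.0264 CPM in TMG and 6.85, 8.11 and 9.68 CPM in TG (log2 fold change -7.24 ± 0.35, SE, edgeR adjusted p = 9.66e-05). It differs from the others in its salt response: at 7.10, 7.57 and 9.57 CPM in CG it did not change with NaCl by the test (0.05 ± 0.18, edgeR adjusted p = 0.85). Without TMG replicate 2 its 3-MA change was -8.08.

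The study names 18 of the 219 genes, chosen on these same libraries, so their directions are not independent evidence. Its text lists TraesCS7D02G347300, TraesCS1B02G115900 and TraesCS1B02G096800 among upregulated peroxidase genes of roots under salt. The others are among its genes changed by 3-MA in roots. Unlike that listing in the text, TraesCS1B02G115900 fell in roots with NaCl here (TG against CG, log2 fold change -3.23). Of the 18, 12 fell with 3-MA in roots, 1 rose, 2 did not pass the test and 3 did not pass the count filter. The 3 are TraesCS7B02G298500, TraesCS1A02G318000 and TraesCS1D02G318600, with no count in TMG and 170, 76 and 72 counts in TG, at least 59.4-fold, 26.6-fold and 25.2-fold lower in TMG. The 2 are TraesCS7D02G347300, at 316, 256 and 254 CPM in TMG and 232, 251 and 214 CPM in TG (edgeR adjusted p = 0.191), and TraesCS1B02G115900 (edgeR adjusted p = 0.0573). TraesCS1B02G115900 had 27 counts in TMG and 234 in TG, and passed under DESeq2 (adjusted p = 0.00339).

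Abundant root genes divided. Of the 8 most abundant genes of TG per kb, TraesCS1B02G096900, TraesCS1A02G079400 and TraesCS7D02G461200 fell, TraesCS1B02G096800 rose, and TraesCS7D02G347300, TraesCS1D02G096300, TraesCS7B02G251100 and TraesCS1B02G115800 did not pass the test. TraesCS7D02G461200 had 14.7, 16.5 and 14.5 CPM in TMG and 152, 74.1 and 84.1 CPM in TG (log2 fold change -2.77 ± 0.27, SE, edgeR adjusted p = 5.34e-04). TraesCS1A02G079400 had 9.36, 12.5 and 12.7 CPM in TMG, 71.4, 127 and 115 CPM in TG and 36.3, 29.5 and 49.1 CPM in CG. It was thus highest in TG, with a change of -3.18 ± 0.24 in TMG against TG (edgeR adjusted p = 2.25e-04). TraesCS7D02G334300, the leading gene of control roots, had 117, 89.3 and 85.1 CPM in TMG, which overlapped its 97.9, 99.3 and 95.1 CPM in TG. TraesCS7A02G345100 (log2 fold change 0.15) and TraesCS7B02G238100 (-0.18), also leading in control roots, did not pass either.

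The genes that rose with 3-MA were of middle to high level. TraesCS1D02G080800 had 96.8, 78.9 and 85.8 CPM in TMG, 12.4, 18.8 and 15.9 CPM in TG and under 1 CPM in CG (TMG against TG 2.47 ± 0.17, SE, edgeR adjusted p = 1.63e-04). TraesCS1D02G080600 had 101, 89.7 and 92.5 CPM in TMG and 32.3, 32.8 and 26.5 CPM in TG (1.63 ± 0.12, edgeR adjusted p = 1.76e-04). TraesCS7B02G118200 had 63.5, 53.3 and 55.4 CPM in TMG and 23.5, 24.1 and 21.7 CPM in TG (1.31 ± 0.11, edgeR adjusted p = 2.70e-04). In all 3 the TMG libraries lay above every TG library. TraesCS7A02G211200, TraesCS7D02G212900 and TraesCS1D02G080400 rose by 1.20, 1.17 and 0.98 on the log2 scale, and TraesCS1A02G079500 and TraesCS7A02G352000 by 1.32 and 1.29. In a fit of all 18 libraries TraesCS1D02G080400 did not pass (edgeR adjusted p = 0.138). The call of TraesCS7A02G352000 was lost without TG replicate 2 (edgeR adjusted p = 0.0584), TMG replicate 1 (0.069) or TMG replicate 2 (0.0564). The study's riser, TraesCS1B02G096800, had 261, 217 and 181 CPM in TMG and 79.4, 132 and 141 CPM in TG (0.90 ± 0.23, edgeR adjusted p = 0.0281), and its call was lost without TG replicate 2 (0.0651), TMG replicate 1 (0.11) or TMG replicate 2 (0.0866).

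**Figure D4:**
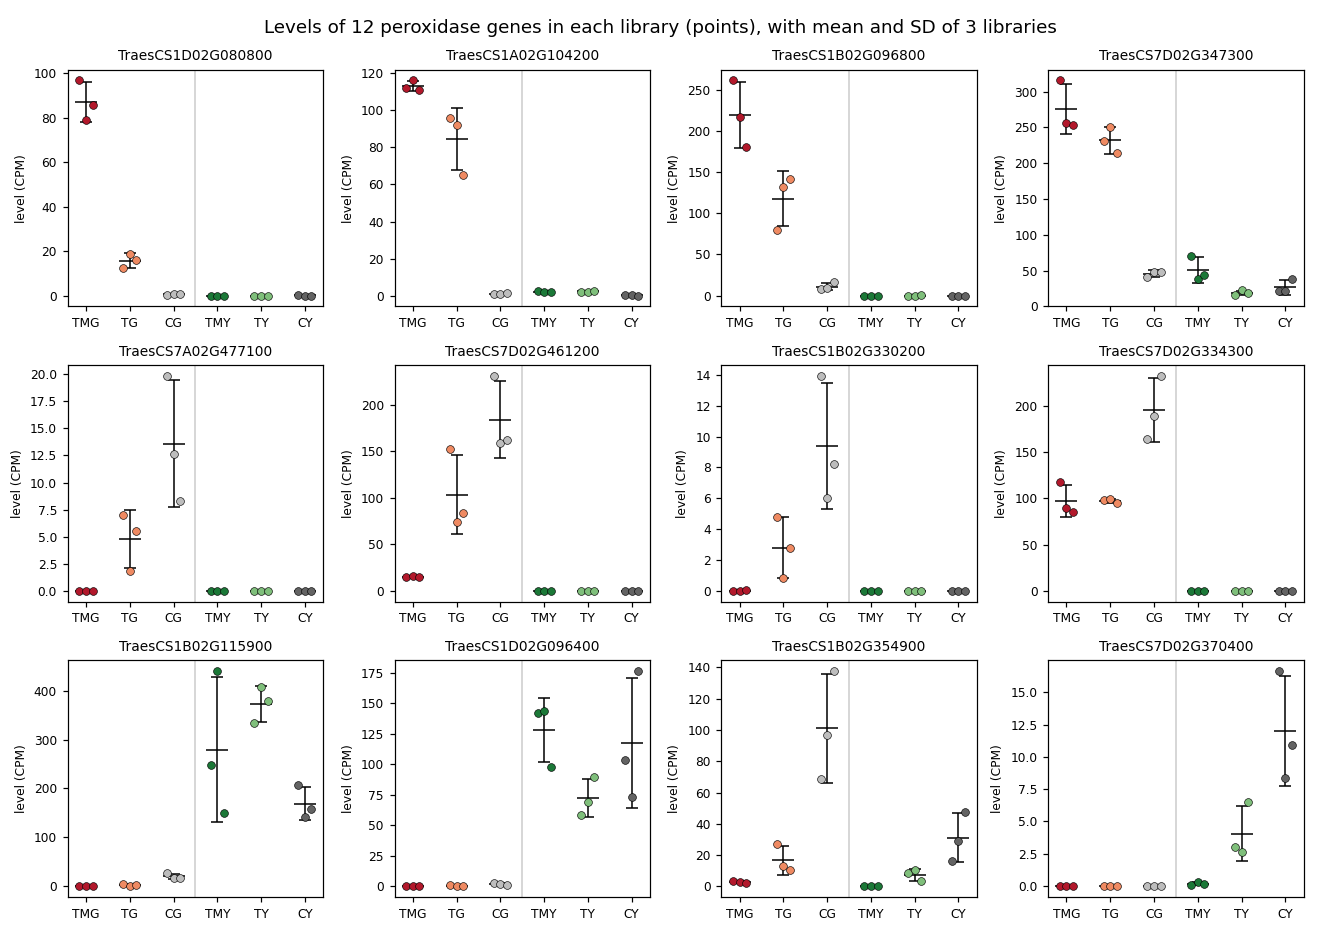
Level (CPM) of 12 peroxidase genes in each of the 18 libraries, with points for libraries and a bar for the group mean ± SD (n = 3). TraesCS1D02G080800 stands at 78.9 to 96.8 CPM in TMG and under 1 CPM in CG, TraesCS7A02G477100 is at 0 in TMG, and TraesCS1B02G115900 and TraesCS1D02G096400 are highest in leaves.

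Many of the 219 genes stood in tandem. With neighbours joined where their starts lay within 500 kb, 168 genes formed 46 clusters, and 14 clusters of 4 or more held 95 genes, the largest 12. Between TMG and TG, 25 clusters held only falling called genes, 1 only rising, 5 both and 15 none. Between TG and CG, the counts were 24, 7, 7 and 8. Neighbours are not independent, and reads may be shared among them, so these clusters were also summed into single features, an alternative chosen after seeing the data. In TMG against TG, 8 features were then higher and 45 lower of 81 tested, beside 8.16% and 12% of all genes tested singly. In TG against CG, 22 were higher and 38 lower of 86 tested, beside 18.5% and 17.1%. No share was taken over all features of the summed fit or over clusters of other genes.

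A large cluster on each of 1A, 1B and 1D was nearly silent in TMG. The 12 genes of 1D from 412507090 to 413214198 summed to 2.99, 2.74 and 3.22 CPM in TMG, 20.0, 10.1 and 14.4 CPM in TG and 62.5, 34.0 and 36.6 CPM in CG. The 10 genes of 1A from 509036504 to 510282530 summed to 2.01, 2.74 and 1.95 CPM in TMG, 18.1, 10.7 and 12.7 CPM in TG and 43.8, 27.8 and 27.5 CPM in CG. The 9 genes of 1B from 556062884 to 556990920 summed to 1.39, 1.81 and 1.56 CPM in TMG, 23.9, 9.23 and 13.1 CPM in TG and 71.8, 41.9 and 42.3 CPM in CG. In all 3 clusters the libraries of TMG, TG and CG did not overlap. Every gene tested in TMG against TG (3 of 12, 3 of 10 and 5 of 9) was called lower. Of these, TraesCS1D02G318000, TraesCS1A02G318200 and TraesCS1B02G330500 had no count in TMG. They passed the count filter through TG and could only be called lower. TraesCS1B02G330200 and TraesCS1B02G331200, with a trace of reads in TMG, also passed through TG. The calls of these genes add nothing to the sums. The 3 clusters are described here because of their low level in TMG, so the separation of their libraries is a description. On 7D, the 4 genes from 426450327 to 426645481, led by TraesCS7D02G334300, had no call between TMG and TG, and 2 of the 4 were lower in TG than in CG.

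Another cluster on each of 1A, 1B and 1D held genes called in both directions with 3-MA. In 1D from 62563846 to 63374775, 3 genes rose and 3 fell of 6 tested, with log2 fold changes from -3.03 to 2.47. TraesCS1D02G080800, TraesCS1D02G080600 and TraesCS1D02G080400 rose there, while TraesCS1D02G079800, at 7.35, 4.93 and 6.08 CPM in TMG and 56.5, 31.2 and 27.2 CPM in TG, was among those that fell. In 1A from 60537167 to 61342436, 3 rose and 2 fell of 5 tested, and in 1B from 99709605 to 100632406, 2 rose and 2 fell of 4 tested. The genes that fell include TraesCS1A02G077700 and TraesCS1B02G095800, which were also expressed in leaves.

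**Figure D5:**
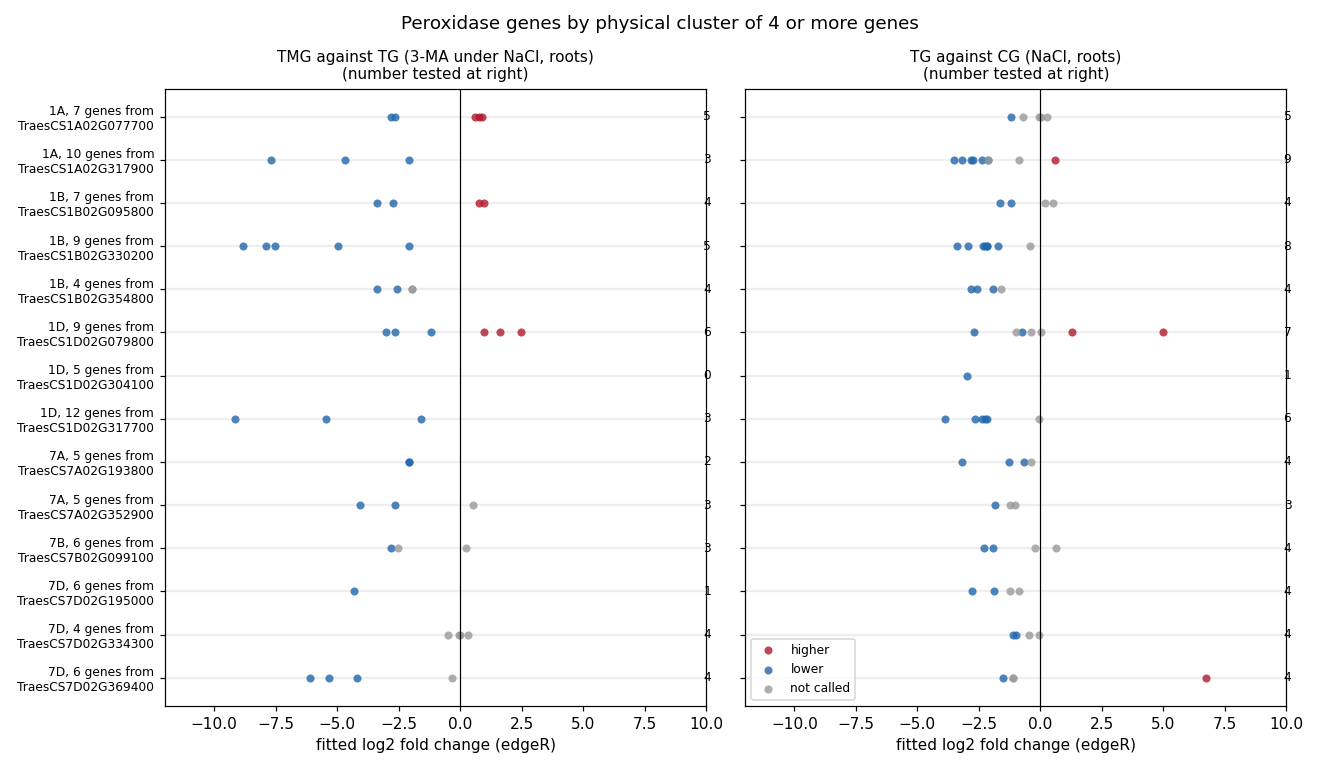
Fitted log2 fold change (edgeR) of the peroxidase genes in the 14 clusters of 4 or more, with TMG against TG on the left and TG against CG on the right, coloured by call. The 3 clusters that hold genes called in both directions with 3-MA are those on 1A, 1B and 1D near 60537167, 99709605 and 62563846.

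Trios on 1B and 1D held neighbours used in different tissues. On 1B, TraesCS1B02G115700 rose with NaCl in roots and had no count in leaves, whereas TraesCS1B02G115900 was the main leaf gene and fell in roots to 4.03, 0.328 and 1.84 CPM in TG, against 25.9, 17.3 and 16.6 CPM in CG (-3.23 ± 0.63, SE, edgeR adjusted p = 0.0052, and -4.18 without TG replicate 1). On 1D, TraesCS1D02G096200 had 43.8, 36.7 and 30.3 CPM in TG against 3.23, 3.21 and 3.25 CPM in CG, while its neighbour TraesCS1D02G096400 had at most 0.44 CPM in TG and 58.4 to 177 CPM in TY and CY.

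In leaves, few of the genes passed the count filter. Of 44 tested between TY and CY, 7 were higher and 12 lower, against 10.1% and 13.2% of all 62945 genes tested (23.3% in either direction), and with libraries scaled by size alone 9 were higher and 10 lower. The median log2 fold change was -0.40, against 0.02 over all genes. The summed level was 619, 749 and 667 CPM in TY and 693, 593 and 1038 CPM in CY, which overlap. The count of lower genes was 6 without TY replicate 1. Chlorophyll a-b binding genes summed to 19876 to 23983 CPM in TY and 47559 to 94014 CPM in CY, and their part in this result was not tested.

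The main leaf gene rose with salt. TraesCS1B02G115900 had 333, 407 and 379 CPM in TY and 206, 141 and 158 CPM in CY (log2 fold change 1.21 ± 0.19, SE, edgeR adjusted p = 0.00453), although in a fit of all 18 libraries the adjusted p was 0.133. It made up 55.0% of the summed level in TY, against 21.8% in CY. TraesCS7D02G084900 had 4.85, 4.23 and 4.15 CPM in TY and 0.526, 0.519 and 0.259 CPM in CY (3.38 ± 0.34, edgeR adjusted p = 0.00105). TraesCS7A02G089700, TraesCS7A02G319100 and TraesCS1B02G115800 rose by 4.31, 2.57 and 2.40, and for TraesCS7A02G089700 the change was 5.74 without CY replicate 2. TraesCS1A02G104200, which also rose in salted roots, had 1.90, 2.24 and 2.70 CPM in TY and 0.42, 0.425 and 0 CPM in CY (3.04 ± 0.70, edgeR adjusted p = 0.0163), a call lost without TY replicate 3 (0.0562).

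Most of the named genes that fell in salted leaves were also expressed in control roots. TraesCS1A02G077700 had 24.8, 25.9 and 20.4 CPM in TY and 67.3, 48.3 and 114 CPM in CY (log2 fold change -1.62 ± 0.29, SE, edgeR adjusted p = 0.00621). TraesCS1B02G355200 had 0.934, 1.05 and 0.639 CPM in TY and 4.15, 6.37 and 11.1 CPM in CY (-2.97 ± 0.40, edgeR adjusted p = 0.00239). TraesCS1D02G079800 and TraesCS1B02G095800 both fell by 1.60. For TraesCS7A02G428200 the change was -2.26, and -3.10 without TY replicate 2. The calls of TraesCS1A02G342000, TraesCS1B02G354900 and TraesCS7D02G420500 were lost without TY replicate 1 (edgeR adjusted p = 0.0607, 0.052 and 0.0697).

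With 3-MA in leaves, 5 of 43 genes tested between TMY and TY were higher and 7 lower, against 8.44% and 9.94% of all 64867 genes tested (18.4% in either direction). Shares of this size are near the background. The summed level was 661, 805 and 487 CPM in TMY and 619, 749 and 667 CPM in TY. The count of higher genes moved with single libraries, being 2 without TY replicate 1, 3 without TMY replicate 1 and 11 without TMY replicate 2. TY is shared with the salt comparison. Histone H4 genes had 16 higher and 0 lower of 42 tested in TMY against TY by edgeR. At an unadjusted p of 0.05 there were 27 and 0, and by DESeq2 21 and 0. PCNA genes had 0 higher and 0 lower of 6 tested by edgeR and by DESeq2. Chlorophyll a-b binding genes had 36 lower of 60. The part of these genes in this result was not tested.

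A cluster of 1B lost its leaf signal. TraesCS1B02G354900 had 0.202, 0.224 and 0.428 CPM in TMY and 8.19, 10.6 and 3.27 CPM in TY (log2 fold change -4.64 ± 0.53, SE, edgeR adjusted p = 0.00193). Its neighbour TraesCS1B02G355200 had 2 counts in TMY and 73 in TY, a ratio of 41.0 (95% interval 11.0 to 345, counting error only) in favour of TY. TraesCS7D02G370400, the gene without any root count, had 0.115, 0.287 and 0.143 CPM in TMY and 3.02, 2.60 and 6.50 CPM in TY (-4.39 ± 0.52, edgeR adjusted p = 0.00207). In these genes every TMY library lay below every TY library. TraesCS1D02G203700 fell by 3.83 (4.44 without TMY replicate 1), TraesCS1B02G331300 by 1.93 and TraesCS1D02G079800 by 1.74.

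TraesCS7D02G347300, the most abundant gene of salted roots, rose in leaves, with 71.1, 37.8 and 43.8 CPM in TMY and 16.7, 22.5 and 18.9 CPM in TY (log2 fold change 1.45 ± 0.26, SE, edgeR adjusted p = 0.00865). TraesCS1A02G104300 had 8.12, 2.30 and 4.85 CPM in TMY and 0.647, 1.19 and 0.674 CPM in TY (2.66 ± 0.50, edgeR adjusted p = 0.0101). The other 3 risers lost their call with single libraries left out: TraesCS1D02G096400 (0.107 without TY replicate 1), TraesCS7B02G251100 (0.0917 without TY replicate 3) and TraesCS7D02G315600 (0.126 without TMY replicate 3, and a change of 3.36 without TY replicate 2), all edgeR adjusted p. TraesCS7B02G118200 fell by 1.76. Its call was lost without any 1 of TY replicates 1 to 3, TMY replicate 1 or TMY replicate 3 (edgeR adjusted p = 0.0508 to 0.096). It was also lost with the replicate number added to the fit (0.0506).

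Whether the tissues differ in their response was tested on 12 libraries at a time. For NaCl, 14 of 174 genes had a more positive change in roots and 3 a more negative one, against 6.17% and 4.91% of all 79339 genes tested (11.1% in either direction). For 3-MA, 3 of 141 were more positive in roots and 13 more negative, against 3.4% and 7.12% of all 79864 genes tested (10.5% in either direction). Of these genes, 84 of the 174 and 58 of the 141 had no count in the leaf groups compared and entered through roots. Those could not be called by edgeR, so neither share describes how often tissues differ. With limma on log2(FPKM + 1), more genes had a more negative than a more positive change in roots under NaCl. TraesCS1A02G108400 is the clearest case under NaCl, with 33.5, 39.1 and 34.7 CPM in TG and 7.62, 10.0 and 7.85 CPM in CG, but 1.72, 1.70 and 1.81 CPM in TY and 2.94, 2.88 and 3.94 CPM in CY (difference 2.91 ± 0.23 on the log2 scale, edgeR adjusted p = 6.39e-05). Its change was positive in roots and negative in leaves. TraesCS1B02G115900 ran the other way, falling in roots and rising in leaves (-4.46 ± 0.73, edgeR adjusted p = 0.00262). Under 3-MA, TraesCS7B02G118200 rose in roots and fell in leaves (3.00 ± 0.34, edgeR adjusted p = 4.40e-04). Its call in leaves alone was lost without most single libraries.

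Other gene lists are given beside the shares of all genes tested, 18.5% higher and 17.1% lower in TG against CG and 8.16% higher and 12% lower in TMG against TG. Peroxidases of other chromosomes had 88 higher (33.1%) and 79 lower (29.7%) of 266 tested in TG against CG, with a median log2 fold change of -0.15, and 16 higher (6.69%) and 98 lower (41%) of 239 in TMG against TG, with a median of -0.71. The difference between the 2 sets of peroxidases was not tested. Laccases, which like peroxidases oxidise lignin precursors, had 25 higher (54.3%) and 9 lower (19.6%) of 46 in TG against CG, and 10 higher (22.2%) and 19 lower (42.2%) of 45 in TMG against TG. Dirigent proteins, which steer the coupling of phenolic radicals, had 34 higher (39.5%) and 12 lower (14%) of 86 in TG against CG, and 4 higher (5.06%) and 37 lower (46.8%) of 79 in TMG against TG. The cinnamoyl-CoA reductase list held 1 gene, which was not called in TG against CG and rose in TMG against TG (log2 fold change 0.70). Of 2 cinnamyl alcohol dehydrogenase genes, 1 was tested in each root comparison and rose in TG against CG (2.68) and in TMG against TG (1.13). Phenylalanine ammonia-lyase, the entry enzyme of phenylpropanoid synthesis, had 2 higher (5.41%) and 21 lower (56.8%) of 37 in TG against CG. In TMG against TG it had 0 higher and 5 lower (13.9%) of 36, near the share of all genes (edgeR; 0 and 6 at an unadjusted p of 0.05, and 0 and 5 by DESeq2).

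Catalases, which break down hydrogen peroxide, had 2 higher and 2 lower of 8 in TG against CG, and 4 higher and 0 lower of 6 in TMG against TG (edgeR; 5 and 0 at an unadjusted p of 0.05 and by DESeq2). They summed to 1311 to 1354 CPM in TMG, 411 to 585 CPM in TG and 287 to 352 CPM in CG. Superoxide dismutases had no call among 9 in TG against CG (edgeR; 1 higher and 0 lower at an unadjusted p of 0.05 and by DESeq2), and 1 higher and 0 lower of 9 in TMG against TG (edgeR; the same at an unadjusted p of 0.05 and by DESeq2).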

How the data were processed

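RNA-seq (paired reads of 150 bases) was made from 18 libraries in 6 groups of 3. The deposited table gives, per gene, whole-number counts and FPKM made by the authors (FPKM is a count scaled to gene length and library depth). The submitters' processing notes name HISAT2 2.0.5 and Bowtie 0.12.2; the counting tool and its use of strand are not given in the sources used here. The table's 75 columns of the authors' own comparisons (fold changes, p-values and calls) were not used. Counts were tested with edgeR 4.0.16 (quasi-likelihood, TMM, filterByExpr) in R 4.3.3, on the 2 groups compared, or 12 libraries for differences between tissues, with Benjamini-Hochberg adjustment over all genes tested and a call at 0.05. The fit was tested on simulated data. Alternatives were DESeq2 1.42.0, limma 3.58.1 on log2(FPKM + 1), other scalings, filters and fits, a replicate block, a fold minimum, summed clusters and each library left out. Tables used pandas 2.3.3 and figures matplotlib 3.10.9. Coordinates are those of the deposited table.

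The members and lists were chosen with earlier results of these data known. Named genes were, per treatment comparison, the 8 largest called rises and falls whose groups do not overlap and whose higher group averages at least 1 CPM, the 6 most abundant per kb in CG and in CY, the 4 largest called in each direction between tissues and in each tissue difference, and genes the study names. The 3 libraries of a group are separate mixtures of 10 roots or leaves, and p-values measure the spread between these libraries. Intervals and bounds (3 counts over a group) cover counting error only. Lists for ascorbate peroxidase, NADPH oxidase, 4-coumarate ligase, O-methyltransferases, cortical cell-delineating proteins and nitrate transporters matched no description and gave no value.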

Additional observations from a re-analysis of the deposited data

Results flagged for a closer look

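Tests of the difference between roots and leaves (edgeR, 12 libraries, values on the log2 scale as the root change minus the leaf change) marked 14 results. Under NaCl these were TraesCS1D02G080800 (8.94), TraesCS7B02G328600 (4.49), TraesCS1A02G104200 (3.12), TraesCS1A02G108400 (2.91), TraesCS1B02G115900 (-4.46), TraesCS7A02G089700 (-2.81) and TraesCS7B02G118200 (-1.32). The value of TraesCS1D02G080800 rests on CY replicate 1, the only TY or CY library with a count, and without it the difference was 4.94 (adjusted p = 1). TraesCS7A02G089700 and TraesCS1A02G104200 rose in both tissues. The call of TraesCS1A02G104200 was lost without CY replicate 1 or 2 (edgeR adjusted p = 0.0872 and 0.0928). That of TraesCS7A02G089700 was lost without most single libraries (0.0519 to 0.101). With limma on log2(FPKM + 1) its difference was -0.19 (limma adjusted p = 0.767). The call of TraesCS7B02G328600 was lost with library-size scaling (0.0582), with the replicate block (0.0715) and without any 1 of 10 libraries (0.0653 to 0.0894).

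Under 3-MA the results were TraesCS7B02G118200 (3.00), TraesCS7A02G211200 (1.98), TraesCS7D02G212900 (1.38), TraesCS7A02G353400 (-10.51), TraesCS7B02G274200 (-9.87), TraesCS7D02G464600 (-8.47) and TraesCS7A02G339700 (-6.37). Fitted sizes of genes at or near 0 in a group are no bounds. TraesCS7B02G274200 had 0.572, 0.262 and 0.792 CPM in TMG and 23.8, 11.1 and 20.3 CPM in TG, and in leaves 0.864, 0.224 and 0.963 CPM in TMY and 0, 0 and 0.071 CPM in TY. TraesCS7A02G353400 and TraesCS7A02G339700 had no count in TY. The call of TraesCS7A02G339700 was lost with the replicate block (edgeR adjusted p = 0.0778) and without any 1 of 10 libraries (0.0686 to 0.102).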

How the results depend on the processing

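Direction was kept by every named gene under every alternative run, except TraesCS7B02G328600, whose tissue difference under NaCl was -0.18 with limma on log2(FPKM + 1); the cause was not tested. Of 86 pairs of named gene and comparison, 15 lost the call with a library left out and 20 under any setting but the fold minimum. Scaling by library size alone moved the median of all genes by 0.23 in TG against CG, 0.35 in TY against CY and 0.59 in CG against CY. TMM within each tissue gave summed levels of 3282 CPM in TMG, 3722 in TG, 4047 in CG and 581 in TY. With a gap of 100 kb, 7 clusters held 4 or more genes.

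Summing clusters, which leaves fewer features, gave 38 lower in TG against CG, 8 higher and 45 lower in TMG against TG and 75 higher in CG against CY. In TMG against TG, 7 were higher in a fit of all 18 libraries and 7 at a log2 fold change of at least 1. In TMY against TY, higher counts were 9 with DESeq2, 9 without a filter, 13 in the fit of all libraries (13 lower) and 3 at the fold minimum. Tissue differences under NaCl were 31 higher and 63 lower with limma. Under 3-MA they were 5 and 26 with DESeq2 and 11 and 62 with limma; the cause was not tested.

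With each library left out in turn, TG against CG gave 28 to 33 higher and 49 to 100 lower, TY against CY 5 to 7 and 6 to 12, TMG against TG 10 to 20 and 65 to 88, TMY against TY 2 to 11 and 6 to 8, and CG against CY 146 to 152 and 6 to 7. The tissue difference under NaCl gave 8 to 14 and 2 to 6, and under 3-MA 3 to 5 and 10 to 17. The replicate numbers did not pair the libraries (correlations of -0.106 to 0.0818). With the replicate block, 32 were higher and 92 lower in TG against CG, 6 and 10 in TY against CY, 17 and 81 in TMG against TG, 4 and 6 in TMY against TY, 148 and 6 in CG against CY, 10 and 4 in the NaCl tissue difference and 3 and 12 in that under 3-MA. In each leaf group 134 to 144 of the 219 genes had no count, and changes in them could not be measured.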
